A study of Sus scrofa with 57 samples.

Results

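In mature adipocytes of pigs, 799 of the 2416 regions in the reduced representation bisulfite sequencing (RRBS) table were mostly methylated in the lean animals, and in the obese animals 523 of these 799 had a lower mean methylation and 276 a higher one. The largest loss on a named gene was at FAM78A, from 91.4% to 56.6%, followed by GNAS, the gene of the stimulatory G protein alpha subunit, from 55.8% to 21.3%. The largest gain was at APOER2 (LRP8), a receptor of the low-density lipoprotein receptor family, from 53.5% to 85.1%. Regions at the T-box genes TBX2 and TBX3 and at the imprinted DLK1 locus were all lower in obese pigs, like most of the 799. The region at TRAPPC9, also listed as imprinted, was higher. The excess of losses depends on which group sets the level, and no direction is read from it. Of the 316 genes on whose locus such a region lay, 111 were expressed enough for a test of expression, and none passed the adjusted threshold, which 1 of all 10246 genes tested (0.00976%) passed.

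The regions were chosen by the authors' mean methylation of the lean pigs, which had to be at least 50%. The same table had given the regions because their means differed between obese and lean pigs, so both the level and the difference are described here without a test. RRBS reads bisulfite-converted DNA cut with MspI, an enzyme that cuts at CCGG, and the methylation level of a region is the mean share of reads that kept a cytosine at its CpGs. Each region held at least 10 CpGs, and the authors had asked for data from 3 pigs or more in both groups. Per-pig values and reads per region were not used here, so no error of a region's mean can be given.

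The pigs were F2 animals of a cross between Göttingen minipigs, which are prone to obesity, and lean production breeds. The labels give no genotype, no treatment and no age. Mature adipocytes were freed from retroperitoneal fat with collagenase and filtered. By the labels, RRBS and methylated DNA capture (mDNAcap) were each made from 10 lean pigs, 2 of them female, and 13 obese pigs, 5 of them female, and RNAseq from 5 lean and 5 obese males. Pig-411 is obese by its label, while the header of the mDNAcap table counts it among the lean animals. The study itself counts more lean and fewer obese pigs than the labels do. The RRBS means were made by the authors, and which group pig-411 entered in them was not tested.

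In mammalian cells, most CpGs outside CpG islands carry a methyl group, while islands at promoters usually do not. A high level is the ordinary state of gene bodies and of DNA between genes, and there methylation does not by itself keep a gene silent. At imprinted loci, the parental alleles carry different methylation. Mature adipocytes store triglyceride, take up glucose under insulin and release fatty acids.

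Sequences from the study's own table of candidate sites fell into 2 of the 799 regions, and they are shown because they give the letters around a CpG at regulators of fat metabolism and growth. PPARALPHA (PPARA) encodes the nuclear receptor that turns on fatty acid oxidation, and FRAP1 (MTOR) the kinase that couples insulin and nutrients to growth. Both stretches are 31 bases long, on build Sscrofa10.2, in intron 2 of PPARA and in intron 30 of MTOR by the study's annotation, and are written 5′ to 3′ as in that table, which gives no strand. The capitals mark the CpG at the centre, the only CpG in either stretch.
PPARA, chr5:435040-435070: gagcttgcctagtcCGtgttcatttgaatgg
MTOR, chr6:65230953-65230983: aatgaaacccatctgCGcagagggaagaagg

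The PPARA stretch lay in the region chr5:434913-435112, in which 12 CpGs had a mean methylation of 72.9% in lean and 85.4% in obese pigs, a difference of 12.5 percentage points. The MTOR stretch lay in the region chr6:65230879-65231014, in which 10 CpGs were at 83.0% in lean and 72.5% in obese pigs. These regions thus differed in opposite directions. All coordinates are on Sscrofa10.2 as deposited, and the strand of the genes is not in the tables used.

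The lean means of the 799 regions ran from 50.1% to 98.7%, with a median of 71.8%, and the obese means from 21.3% to 97.4%, with a median of 69.2%. The difference of obese minus lean had a median of -11.8 points, and its size a median of 14.0 points. The differences ran from -42.0 to 31.6 points. In 72 regions the loss was at least 20 points and in 20 regions the gain was. The obese mean was under 50% in 121 regions and under 30% in 11 of them. A typical region was short, with a median length of 181 bases and a median of 10 CpGs, and length and number of CpGs had nearly the same medians in the regions that were lower and in those that were higher in obese pigs.

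**Figure D1:**
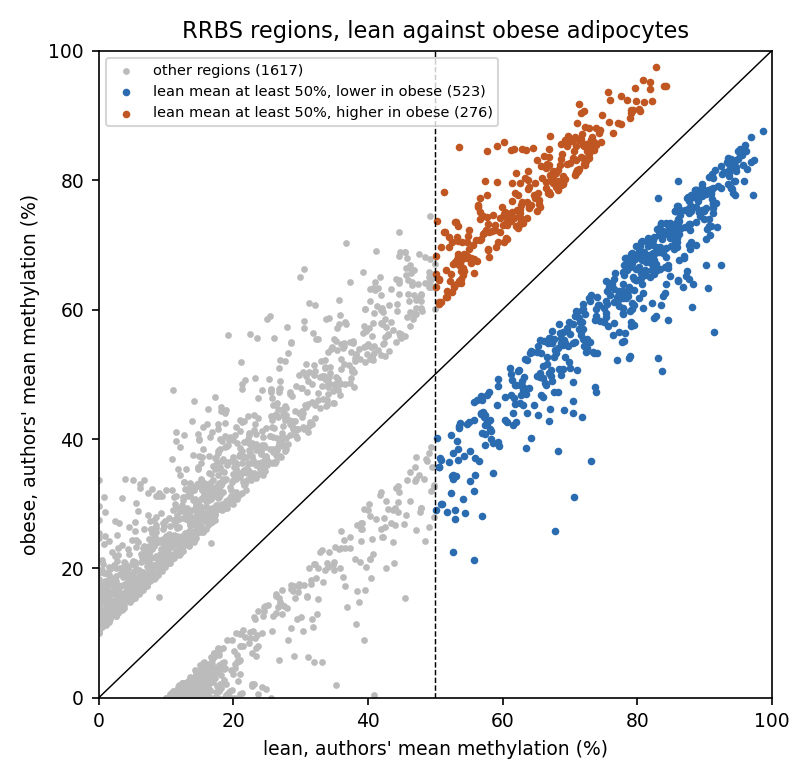
Mean methylation in lean pigs (x axis, %) against obese pigs (y axis, %) for the 2416 RRBS regions, 1 point a region. Grey points are the 1617 regions with a lean mean under 50%, and the empty band along the diagonal shows that the table holds hardly any region with a difference under 10 points.

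The direction followed the lean level. Among 168 regions with a lean mean of 50% to under 60%, 68 were lower and 100 higher in obese pigs. From 60% to under 70%, 93 were lower and 102 higher. From 70% to under 80%, 122 were lower and 64 higher, and from 80% to under 90%, 170 were lower and 10 higher. All 70 regions with a lean mean of at least 90% were lower. Part of this pattern is fixed by how the regions were selected: only 2 of the 799 differ by under 10 points, so a region above 90% in lean pigs has almost no room to gain. Choosing on the obese mean instead gave 870 regions, of which 468 were higher in obese pigs and the others lower. Choosing on the mean of both groups gave 834 regions, 471 lower and 363 higher. The excess of losses thus depends on which group sets the level, and no direction is read from it.

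**Figure D2:**
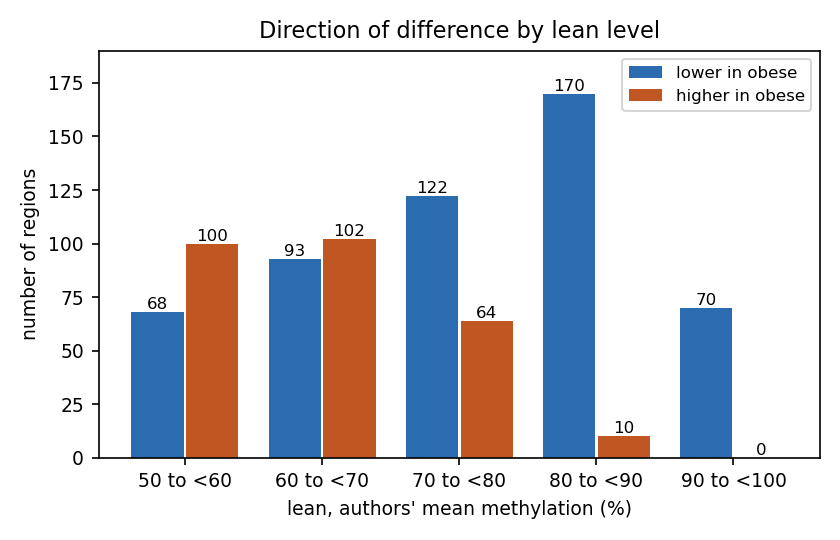
Number of regions (y axis) that were lower (blue) or higher (orange) in obese pigs, by the authors' lean mean methylation (x axis, %). Gains outnumber losses up to 70% and losses outnumber gains above it, with 10 gains against 170 losses from 80% to under 90%.

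Just inside the limit stood a region at chr11:26510755-26511001 with a lean mean of 50.1% and one in the locus of MAEA on an unplaced sequence, also at 50.1%. Just outside stood a region in GIT1 on chromosome 12, with a lean mean of 49.993% and an obese mean of 60.1%, and one at chr11:86215209-86215820 with 49.9%.

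The mostly methylated regions lay nearer to chromosome ends than the others. Of the 755 on assembled chromosomes, 349 (46.2%, 95% Wilson interval 42.7 to 49.8) lay within 5 Mb of an end, taken as the base 0 or the last position that any table used here gives for that chromosome. The share was 36.5% (32.8 to 40.4) of the 614 placed regions with a lean mean of 20% to under 50%, and 23.0% (20.5 to 25.8) of the 938 placed regions under 20%. These intervals cover counting error only and take regions as independent, although 15 pairs of neighbours lay within 1000 bases of each other. Of these 15 pairs, 12 differed in the same direction. Chromosome 3 held the most regions, 83, followed by chromosome 6 with 76 and chromosome 12 with 62. Chromosome X held 22, 15 lower and 7 higher, which is 2.75% of the 799 regions. It held 5.79% of the regions with a lean mean of 20% to under 50%, and 7.16% of those under 20%. The groups had different numbers of females. Without chromosome X the share of regions lower in obese pigs was 65.4%, against 65.5% with it. So few regions lie on chromosome X that the share could hardly have moved, and nothing about sex is read from it.

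A gene locus was overlapped by 355 of the 799 regions (44.4%, 95% Wilson interval 41.0 to 47.9), and 423 lay on or within 5000 bases of one. At a lean mean of 20% to under 50%, 45.4% (41.6 to 49.3) overlapped a locus and 59.6% (55.8 to 63.4) lay on or within 5000 bases of one. For regions with a lean mean under 20%, the shares were 48.5% (45.3 to 51.6) and 65.8% (62.8 to 68.8). Here 52.9% (49.5 to 56.4) lay on or within 5000 bases of a locus. Thus 376 of the mostly methylated regions had no annotated gene within 5000 bases. The largest loss of all was one of them, chr3:101441350-101441486, from 67.8% to 25.8% over 10 CpGs. A further such site was chr5:17776590-17776654, from 70.6% to 31.1% over 11 CpGs, which is followed by 3 more regions with gaps of 64, 425 and 97 bases, all lower in obese pigs.

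The 8 largest losses on loci of named genes were at FAM78A, GNAS, SP6, TBX2, SOLH, LYL1, VAV2 and NCF4. SP6 is a zinc finger transcription factor of the Sp family, and its region fell from 83.7% to 50.5%. LYL1, a helix-loop-helix factor of blood and vessel cells, had 70.4% in lean and 43.9% in obese pigs. SOLH, a calpain-like protease, had 73.9% and 47.2%. NCF4, a cytosolic subunit of the phagocyte NADPH oxidase, had 79.0% and 52.9%. The 8 differences ran from -34.9 to -26.1 points.

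The 8 largest gains on named loci were at APOER2, IQCE, BEST2, a locus called LGR6 in the tables, KIF1A, WISP2, ALOXE3 and PDE6A. IQCE, a protein of the primary cilium, had 59.1% in lean and 85.3% in obese pigs. BEST2, a chloride channel of the bestrophin family, had 62.8% and 84.8%. The locus called LGR6, to which the reference list gives the name of another gene, UBE2T, had 56.6% and 77.3%, and its identity is uncertain. WISP2 (CCN5), a secreted matricellular protein made by adipocyte precursors, had 53.0% and 73.5%. The 8 differences ran from 20.02 to 31.6 points.

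Of the 316 genes, 280 had 1 region on the locus, 31 had 2 and 5 had at least 3. Among the 36 genes with 2 or more, 14 had losses only, 9 had gains only and 13 had both. KIF1A, a kinesin motor that carries vesicles along axons, had the most, with 7 regions in a locus of 58372 bases. In 5 of them the obese mean was higher, by 12.9 to 20.5 points, and in 2 it was lower, with differences of -11.8 and -12.4. The regions that differed by 13.0 and by -12.4 points stood 619 bases apart. VAV2, a guanine nucleotide exchange factor that acts below growth factor receptors, had 4 regions. The one nearest the lower end of the locus differed by 13.8 points and the others by -13.1, -15.4 and -26.3, in their order along the chromosome. TBC1D22A, a protein with a Rab GTPase-activating domain, had gains of 14.5 and 13.1 points and a difference of -11.2 between them. APOER2 had gains in its 3 regions, of 13.8, 13.1 and 31.6 points, and the last 2 stood 55 bases apart. A gene known only as ENSSSCG00000024859 had a gain of 17.6 points and differences of -21.4 and -15.5.

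**Figure D3:**
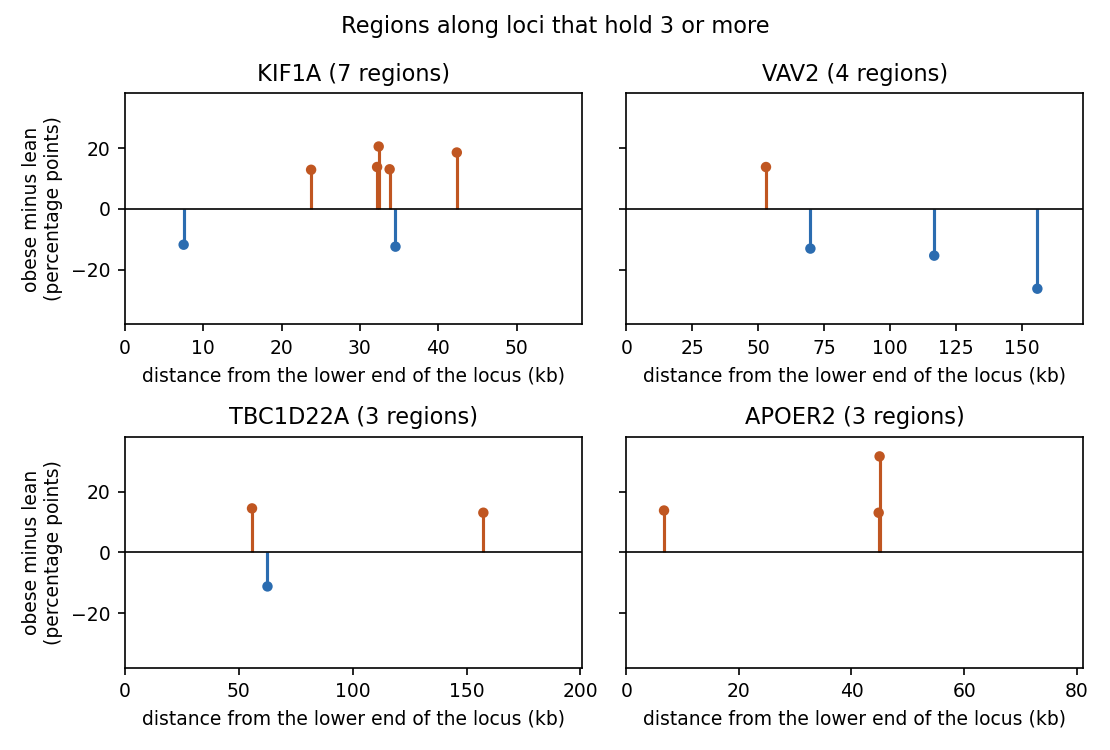
Difference of mean methylation, obese minus lean (y axis, percentage points), against the distance from the lower end of the gene locus (x axis, kb) for the 4 named genes with at least 3 regions. KIF1A shows 5 gains and 2 losses, VAV2 1 gain and 3 losses, TBC1D22A 2 gains and 1 loss, and APOER2 3 gains.

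Over all genes, 414 of 25285 gene identifiers (1.64%) had a region on or within 5000 bases of the locus, and of the 423 regions at such genes 266 were lower and 157 higher, with a median difference of -11.7 points. RRBS samples CpG-rich DNA, so genes differ in whether they could be measured, and the counts by gene group that follow are given without a test.

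Among homeobox, T-box and other developmental factors, 7 genes had 8 regions, all 8 lower in obese pigs, with a median difference of -14.9 points. TBX2, a T-box repressor, had adjoining regions: chr12:38333111-38333174 went from 63.7% to 52.2%, and chr12:38333174-38333531, with 19 CpGs, from 83.1% to 52.6%. TBX3, its close relative, had 81.9% in lean and 65.0% in obese pigs within 5000 bases of the locus, and 53.7% and 42.5% on it. SOX9, which holds back adipocyte differentiation in precursors, had 57.6% and 42.4%. A region beside HOXD10 and HOXD9 had 71.7% and 56.1%. FOXP4 and SIM1 gave the remaining regions, with differences of -14.6 and -12.8 points.

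Among imprinted genes, 3 had 5 regions, 4 lower and 1 higher, with a median difference of -15.0 points. At GNAS the region chr17:66305477-66305732 went from 55.8% to 21.3% over 10 CpGs, and chr17:66320005-66320210 from 79.3% to 61.0%. The first of them had the lowest obese mean of the 799 regions. DLK1, whose protein holds back adipocyte differentiation, had 72.0% in lean and 57.0% in obese pigs in one region and 83.7% and 70.9% in the other. TRAPPC9, a subunit of a vesicle tethering complex, had 70.9% and 81.3%.

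Chromatin genes had 9 regions at 8 genes, 7 lower and 2 higher, with a median difference of -13.7 points. BRD3, a bromodomain reader of acetylated histones, had 66.9% in lean and 42.8% in obese pigs. BCOR, a corepressor on chromosome X, had 58.6% and 34.8%, and the unequal number of females in the groups cannot be told apart from the group there. FBXL11 (KDM2A), a histone demethylase that binds unmethylated CpGs, had 89.9% and 74.0%. SMARCB1, a core subunit of the SWI/SNF remodelling complex, had 77.9% and 61.8%. HDAC4, a class IIa histone deacetylase, had one region with a difference of 13.2 points and another with -10.5 points.

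Collagens and matrix genes had 6 regions, 5 lower and 1 higher, with a median difference of -15.6 points. COL5A3, a minor fibrillar collagen, had 55.9% in lean and 37.1% in obese pigs, COL6A3 had 82.4% and 66.6%, and COL13A1, a transmembrane collagen, 73.7% and 58.4%. A region within 5000 bases of COL4A2, a basement membrane collagen, had 68.7% and 49.95%. COL5A1 was the exception, with a gain of 12.4 points.

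Signalling genes of the Wnt, Notch, TGF-beta, hedgehog and FGF pathways had 6 regions, 4 lower and 2 higher. The Wnt antagonist SFRP2 had 60.7% in lean and 42.6% in obese pigs within 5000 bases of its locus, and the Notch ligand DLL1 had 94.6% and 79.9%. WNT7B, a Wnt ligand, had 76.5% and 63.2%, and GLI2, the transcription factor at the end of the hedgehog pathway, 72.4% and 85.5%. Ion channel, synapse and axon guidance genes had 10 regions, 6 lower and 4 higher. Among them the calcium release channel RYR1 had 77.9% in lean and 60.3% in obese pigs, the calcium channel subunit CACNA1E 69.3% and 86.1%, and CACNLB1 (CACNB1) 61.4% and 76.8%.

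Genes of insulin and mTOR signalling had 6 regions, 3 lower and 3 higher, with differences from -14.0 to 16.5 points. The median of 0.21 points stands for no region, since it lies between differences of -10.4 and 10.8. MTOR was lower in obese pigs, while RPTOR and MLST8, its partners in mTOR complex 1, were higher: RPTOR had 76.4% in lean and 87.3% in obese pigs, and MLST8 54.1% and 65.4%. The MLST8 region also lay within 5000 bases of other annotated genes. INPP5D, a phosphatase that removes a phosphate from the lipid second messenger of PI3 kinase, had 65.8% and 82.2%. PRKCZ, an atypical protein kinase C, had 91.1% and 77.1% in one region and 92.6% and 80.9% in another.

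Of the adipogenic and thermogenic regulators, PRDM16, a driver of the brown and beige fat programme, had 68.8% in lean and 55.6% in obese pigs, and TCF7L2, a transcription factor of the Wnt pathway, 52.3% and 40.6%. PPARA was the only one of the 3 that was higher. Genes of lipid synthesis, storage and lipolysis had a single region each at PCK1 and FASN, both beside the locus. PCK1, the enzyme that feeds glycerol synthesis from small carbon compounds, had 63.4% and 84.6%. FASN, the fatty acid synthase, had 73.0% and 61.3% over 19 CpGs. FASN was the only gene of the adipocyte marker list with a region, and the lists of stroma, leukocyte, endothelium and muscle markers had none.

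A second RRBS table, for which the authors required values in at least 5 pigs a group, held 610 regions, 134 of them with a lean mean of at least 50%. Of the 799 regions, 70 overlapped one of that table, and the difference had the same sign in all 70. It rests on the same pigs, and 21 of the 70 had the same ends, so this is no independent replicate. The lean means of the pairs differed by a median of 2.16 points and by at most 16.1 points. The size of the difference could change either way: NCF4 had -26.1 points here and -16.2 there, and BCOR -23.9 and -28.7. The regions with the largest losses at FAM78A, GNAS and SP6 and the largest gain at APOER2 were not among the 70.

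In mDNAcap, fragments of methylated DNA were bound, sequenced and counted in windows, and the authors deposited 7401 windows that differ between the groups with 11 normalised counts a group. Since these windows were kept for their difference in nearly the same animals, their counts are described and not tested. Of the 799 regions, 42 (5.26%, 3.91 to 7.03) overlapped a window, 39 windows in all. The share was much the same, 5.79% (4.23 to 7.88), for regions with a lean mean of 20% to under 50%. It was 1.02% (0.560 to 1.87) for those under 20%. The captured count was higher in obese pigs in 37 of the 42 pairs and lower in 5. Over all 7401 windows, 29.3% were higher in obese pigs. The excess was not particular to these regions. The window was higher in 34 of 37 pairs at a lean mean of 20% to under 50%, and in 10 of 10 under 20%. Among the 24 pairs whose RRBS mean was lower in obese pigs, the window was lower in 4 and higher in 20, and among the 18 whose RRBS mean was higher, it was higher in 17. The direction was thus the same in 21 of 42 pairs, and in 33 of 37 for regions with a lean mean of 20% to under 50%. With nearly all windows higher, this count mostly follows the share of RRBS regions that were higher. That share was 34.5% of the 799 regions and 70.4% of those from 20% to under 50%. The counts therefore cannot compare how well the measurements match at the different lean levels. In none of the 42 pairs were the counts of the groups apart without overlap.

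The largest loss in a captured window was at chr7:123330478-123330680, without a gene nearby, where RRBS gave 52.6% in lean and 22.5% in obese pigs. The captured counts there were 9.93 at the lowest, 14.4 at the median and 22.8 at the highest in lean pigs, and 4.09, 8.96 and 14.1 in obese pigs. No obese pig reached the lean median. At chr17:68569852-68570236 the RRBS means were 80.8% and 62.5%, and the counts 13.2, 24.2 and 31.5 in lean and 6.72, 15.3 and 20.3 in obese pigs. Both measurements were lower in obese pigs at these sites.

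At SOLH the RRBS difference was -26.7 points, while the captured counts were 6.75, 10.3 and 22.6 in lean pigs and 8.72, 18.7 and 39.4 in obese pigs. At SNED1, an extracellular matrix protein, RRBS gave 52.7% and 33.9%, and the counts were 15.7, 26.9 and 36.0 in lean and 26.9, 37.9 and 53.7 in obese pigs. All 11 obese counts were above the lean median there. PPP1R26, a regulatory subunit of protein phosphatase 1, had a pair of regions 121 bases apart under the same window, lower in obese pigs by RRBS (differences of -18.2 and -18.5), with counts of 21.8, 31.6 and 52.5 in lean and 30.6, 40.6 and 67.2 in obese pigs. At these genes the measurements pointed in opposite directions, with groups that overlapped in the counts. The captured windows had a median length of 1099 bases, and 1 shared base was enough for an overlap. The measurements therefore need not cover the same CpGs.

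At KIF1A the captured window over the region that rose from 72.2% to 90.7% had counts of 21.8, 29.0 and 48.5 in lean pigs and 28.0, 42.9 and 70.9 in obese pigs. At NEK8, a kinase of the primary cilium, RRBS gave 53.4% and 72.9%, and the counts were 6.05, 15.4 and 25.9 in lean and 9.90, 23.6 and 34.8 in obese pigs. Both measurements were higher in obese pigs at these genes. At CCNY, a cyclin of the cell membrane, adjoining regions differed in opposite directions, from 72.8% to 84.9% and from 94.2% to 78.6%, under a single window whose 11 obese counts were all above the lean median. At 5 of the 39 windows the lean mean count was at least 200, and at the window on chromosome 2 over chr2:100160531-100160609 and its neighbour it was 2449.

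**Figure D4:**
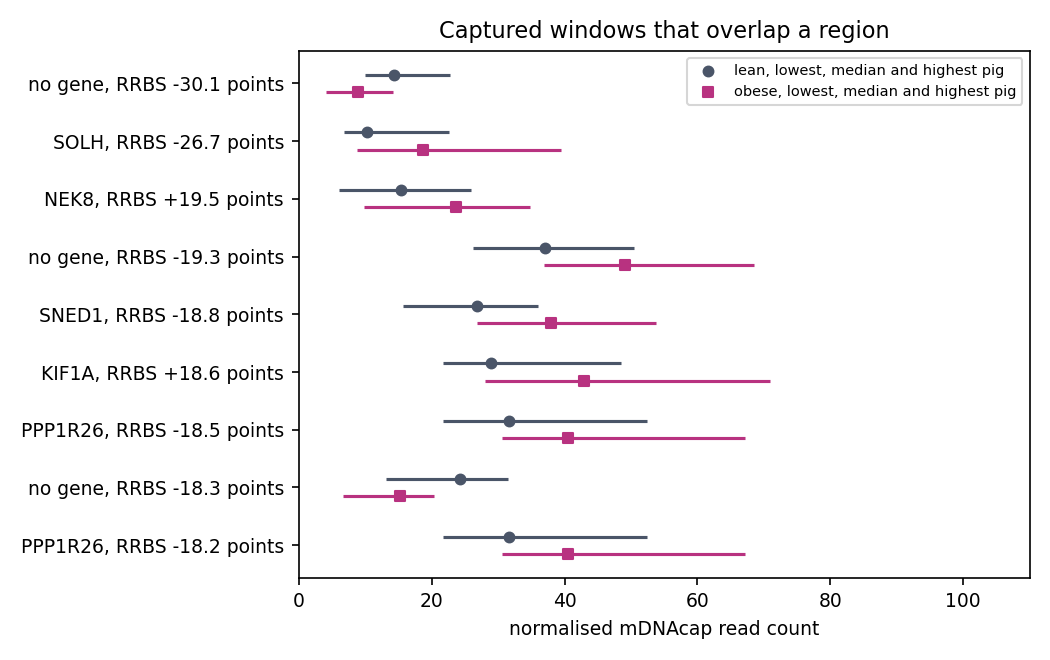
Normalised mDNAcap read count (x axis) of the windows that overlap the regions with the largest RRBS difference, with the lowest, median and highest of 11 values in lean (grey circles) and obese (magenta squares) pigs. The 9 regions shown leave out 1 region whose lean mean count was 808.4, and the groups overlap in every window.

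For expression, RNAseq gave FPKM values, which set the fragments of a gene against its transcript length and the size of the library, and each library was divided by a further size factor. Of the 12 symbols in the adipocyte list, 8 were matched, to 9 identifiers, since FASN has 2. All 9 were above 0 in every pig, with a summed value of 3400 to 4500 in lean and 3590 to 6090 in obese pigs. The summed stroma list ran from 225 to 659 and from 247 to 624, mostly COL3A1, the leukocyte list from 2.92 to 5.36 and from 3.01 to 5.76, the endothelium list from 1.52 to 12.3 and from 3.48 to 8.91, and the muscle list from 0.458 to 0.744 and from 0.285 to 1.08. CD163, a macrophage receptor, was listed at 0 in every pig. In such bulk samples, fewer cells of a type and less RNA per cell cannot be told apart.

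Of the 316 genes on whose locus a region lay, 111 reached the mean FPKM of 1 that the test required. None passed an adjusted p of 0.05 in limma with Benjamini-Hochberg adjustment over 10246 genes (1 gene of all, 0.00976%), and the lowest adjusted p was 0.0827. Without lean pig-402, 3 of them passed, RAPGEF1, GNA12 and SLC12A4, of 147 among all genes. At an unadjusted p under 0.05, 27 of the 111 (24.3%) passed, 18 higher and 9 lower in obese pigs, where the background over all tested genes was 20.4%, with 11% higher and 9.45% lower. With FPKM as deposited, without the size factors, 11 were higher and 8 lower, and among all genes 613 were higher and 783 lower, in place of 1125 and 968. Among the 61 tested genes whose regions were all lower in methylation, 13 were higher and 5 lower at that level, and among the 47 whose regions were all higher, 4 were higher and 4 lower. The median log2 change was 0.07 over the 111 genes, 0.07 with methylation losses only and 0.02 with gains only, beside 0.005 over all genes tested. For 6 of the 111 genes (5.41%) the groups of 5 pigs stood apart without overlap, beside 4.11% of all tested genes.

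These 6 genes were RAPGEF1, SLC12A4, PPP6R1, VPS36, KIAA2013 and WWC3, all with a region lower in obese pigs; they were listed after their values were seen. In what follows, the change is on the scale of log2(value + 1), which understates the change of low genes, and the p-value of a single gene is from an exact two-sided permutation test, which cannot go below 0.00794 with 5 pigs a group. RAPGEF1, an exchange factor for the GTPase RAP1, had 1.73, 1.48, 1.22, 1.40 and 1.47 in the lean pigs and 2.61, 2.35, 2.13, 2.09 and 2.43 in the obese pigs. Every obese pig was above every lean pig, and this absence of overlap alone fixes the exact permutation p at 0.00794. RAPGEF1 had a log2 change of 0.43 (SE 0.08) and an adjusted limma p of 0.0827. Its region on chromosome 1 had a methylation of 85.6% in lean and 70.5% in obese pigs over 16 CpGs.

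SLC12A4, a potassium-chloride cotransporter, had 3.44, 2.55, 2.06, 2.71 and 2.43 in lean and 4.11, 4.37, 3.72, 3.61 and 3.53 in obese pigs. The groups did not overlap, and the log2 change was 0.43 (SE 0.10, adjusted limma p = 0.109). Its region had 81.6% in lean and 71.1% in obese pigs. PPP6R1, a regulatory subunit of protein phosphatase 6, had 1.88, 1.56, 1.15, 1.76 and 1.69 in lean and 2.90, 2.22, 2.67, 1.96 and 2.34 in obese pigs, again without overlap (log2 change 0.39, SE 0.11, adjusted limma p = 0.126). Its region had 53.1% and 34.2%. VPS36, a subunit of the ESCRT-II sorting complex, had 3.11, 2.47, 2.66, 2.52 and 2.82 in lean and 2.201, 1.97, 2.32, 1.93 and 1.74 in obese pigs. All obese values were the lower ones here (log2 change -0.29, SE 0.08, adjusted limma p = 0.131), and its region had 71.3% and 58.6%.

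MGMT, which removes alkyl groups from guanine in DNA, had 18.7, 22.2, 14.7, 16.1 and 25.1 in lean and 25.8, 23.6, 37.7, 35.1 and 47.3 in obese pigs. The groups overlapped only through the highest lean and the lowest obese pig, with a log2 change of 0.76 (SE 0.21, adjusted limma p = 0.129, exact permutation p = 0.0159). PPP1R16A, a targeting subunit of protein phosphatase 1, was the gene with a methylation gain among the 5 with the lowest p and higher expression, at 2.48 ± 0.637 in lean and 4.07 ± 0.723 in obese pigs (SD, n = 5 each) and an exact permutation p of 0.0159. Its adjusted limma p was 0.121.

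SOD2, the superoxide dismutase of mitochondria, had 165.6, 112.7, 189.1, 170.9 and 186.4 in lean and 109.6, 117.3, 73.3, 124.3 and 95.02 in obese pigs. A single lean pig, at 112.7, lay within the obese range. Its log2 change was -0.66 (SE 0.19, adjusted limma p = 0.141, exact permutation p = 0.0238), and its region had a methylation of 79.0% in lean and 89.5% in obese pigs. COL6A3, a chain of the collagen VI of the fat cell matrix, had 3.33, 4.06, 3.37, 4.81 and 2.99 in lean and 3.95, 1.96, 0.739, 1.06 and 0.737 in obese pigs. A single obese pig, at 3.95, reached the lean range (log2 change -0.92, SE 0.27, adjusted limma p = 0.142). CRYL1, a crystallin-like dehydrogenase, and ENSSSCG00000026907 completed the 5 genes with the lowest p and lower expression, with log2 changes of -0.32 and -0.35.

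**Figure D5:**
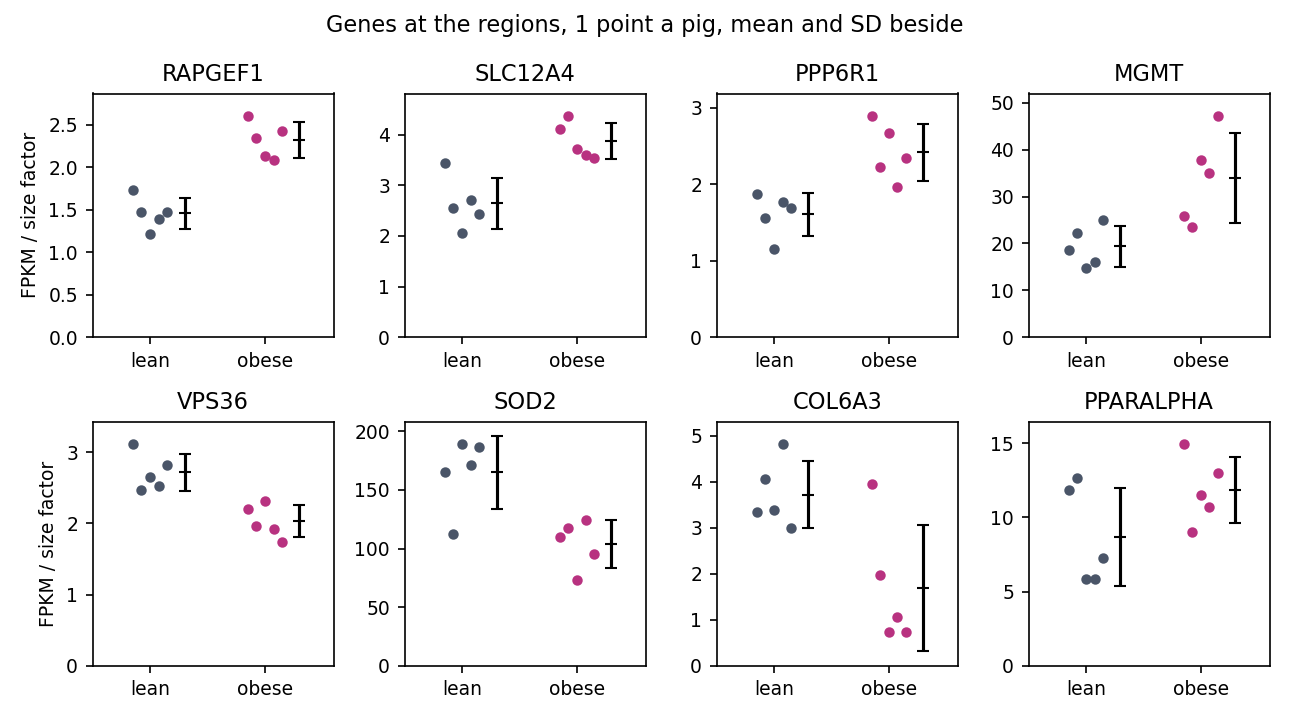
FPKM divided by the size factor (y axis) in 5 lean and 5 obese pigs, 1 point a pig, with the mean and SD beside the points, for 8 genes with a region on the locus. RAPGEF1, SLC12A4 and PPP6R1 are higher in every obese pig, VPS36 is lower in every obese pig, and the remaining genes overlap between the groups.

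PPARA had 11.9, 12.7, 5.82, 5.84 and 7.24 in lean and 14.9, 9.04, 11.5, 10.7 and 13.0 in obese pigs. The lean pigs stood in a high pair and a low trio, and the obese range took in the high pair (log2 change 0.46, SE 0.22, adjusted limma p = 0.272, exact permutation p = 0.111). MTOR had 3.36 ± 0.581 in lean and 3.58 ± 0.476 in obese pigs (SD, n = 5 each), a log2 change of 0.07 (SE 0.11) with an adjusted limma p of 0.726. GNAS, whose region had the second largest loss on a named locus, had 294.6, 224.4, 217.6, 253.5 and 283.1 in lean and 250.6, 249.6, 220.3, 261.7 and 208.1 in obese pigs. Its groups overlapped widely, with a log2 change of -0.09 (SE 0.14, adjusted limma p = 0.735). FASN, at the identifier nearest the region, had 917.6 ± 382.5 in lean and 1235 ± 624.9 in obese pigs (SD, n = 5 each), also with wide overlap and an adjusted limma p of 0.545.

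PCK1 had 0.843, 4.17, 84.0, 3.66 and 6.31 in lean and 0.970, 2.98, 1.504, 3.44 and 0.545 in obese pigs. The lean mean of 19.8 rested on 1 pig, and neither test passed (adjusted limma p = 0.322, exact permutation p = 0.103). TBC1D22A, BRD3, SMARCB1, COL5A3, COL4A2, FBXL11 and TCF7L2 had log2 changes between -0.11 and 0.19 with adjusted limma p-values from 0.651 to 0.992. The genes with the largest methylation differences were mostly below the expression minimum. FAM78A had a mean FPKM, divided by the size factors, of 0.316 over the pigs, APOER2 0.148, TBX2 0.382, SP6 0.0448, VAV2 0.12 and KIF1A 0.00753, and DLK1 and WNT7B were listed at 0 in every pig, so no difference of expression could be tested for them.

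Over the whole gene lists, with or without a region, no gene passed the adjusted limma p. At an unadjusted p under 0.05, where 11% of all tested genes were higher and 9.45% lower in obese pigs, the insulin and mTOR list had 10 higher and 2 lower of 49 tested. The lipid list had 6 higher and 3 lower of 48, the adipogenic and thermogenic regulators 5 and 3 of 42, and the signalling genes 5 and 4 of 39. Collagens and matrix genes had 1 higher and 6 lower of 38, and ion channel, synapse and axon guidance genes 4 and 1 of 13. Chromatin genes had 6 higher and 4 lower of 83, imprinted genes 2 and 2 of 20, and the developmental factors 0 of 14. These counts are a description, and nothing particular to a list is read from them.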

How the data were processed

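For RRBS, the authors mapped reads to Sscrofa10.2 with Bismark 0.10 and Bowtie2 2.1.0, required at least 5 reads a CpG and called regions with metilene; the deposited group means are fractions from 0 to 1, here given as percent and as the authors' means, with no SD. The number of CpGs a region is deposited as a whole number and was used as such. For mDNAcap, the authors deposited normalised counts per window, a signal with 11 values a group that were not assigned to pigs. For RNAseq, the authors mapped with STAR 2.3.1 and estimated FPKM with Cufflinks 2.2.0. FPKM scales by fragment number and transcript length, and neither it nor the RRBS means come with reads per value in the files used here, so that no floor or interval for a level can be given. The deposited comparison columns (p-values, q-values, differences and fold changes) hold the study's own results and were not used, nor was the file of hotspots.

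Regions, gene loci and windows were joined by at least 1 shared base with Python 3.11.15, pandas 2.3.3 and scipy 1.17.1. Gene names are those of the tables, or for 1157 identifiers those of a reference list, and older symbols were matched to the gene lists through it. FPKM values of 25285 identifiers (52 repeated entries summed, 9 with a failed estimate left out) were divided by median-of-ratios size factors from 0.697 to 1.21, and the libraries of pig-572 were averaged, the second of which bears another number in its description. On log2(value + 1), limma 3.58.1, run in R 4.3.3 with an eBayes trend and Benjamini-Hochberg adjustment, tested the genes whose mean FPKM reached 1. The test was checked on simulated data. Single genes were tested with the exact permutation test. The pigs are separate animals, and the p-values set the difference of the groups against the spread between pigs. Kinship among these F2 animals was not part of the fit. Reads of overlapping genes may be shared, since the counting is not stated to use strand.

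The regions, gene lists and tests were chosen with earlier results of these data known. Named were the 8 largest losses and gains on named genes, the 4 largest differences of each gene list, at most 10 regions in a captured window, regions that hold a sequence of the study's table, genes with at least 3 regions, their expression, and the 5 genes with the lowest p in each direction. A result on 1 gene that the rule names is not reported here.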

Additional observations from a re-analysis of the deposited data

Results flagged for a closer look

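Expression of the 25 named genes was screened for a single pig far from the other 4 of its group, by the gap to the nearest pig divided by the range (limit 0.71), and chance alone would put about 1 in 20 of the 50 groups above it. PCK1 stood out in the lean pigs, where pig-413 had 84.0 against 0.843 to 6.31 in the others (0.934 of the range). FASN stood out in the obese pigs, where pig-433 had 2315 against 698.1 to 1131 (0.732). COL4A2 stood out in the same pig, with 54.8 against 31.2 to 37.6 (0.731). Genes mentioned above but outside these 25 were not screened. Among them, TRAPPC9 had 1351 in obese pig-433 against 11.2 to 16.8 in the other obese pigs. The origin of these values was not tested.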

How the results depend on the processing

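The number of regions, 799, was 134 where values in at least 5 pigs a group were required, and stayed within 1.5 times with the other limits tried. The share lower in obese pigs, 65.5%, turned to 46.2% with the obese mean as the criterion, and was 56.5% with the mean of both groups, 72.1% from a lean mean of 60%, 69.4% in the 5-pig table, 78.3% for differences of at least 20 points and 80% for at least 15 CpGs. The share on a gene locus, 44.4%, was 52.9% with loci extended by 5000 bases. Regions at a captured window, 42, were 77 within 1000 bases.

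Of the genes with a region, none passed the adjusted limma p in any alternative but 2. With both libraries of pig-572 kept apart it was 1, RAPGEF1 (adjusted p = 0.0326), of 158 among all genes, in a fit that counts 2 libraries of 1 pig as 2 replicates. Leaving out 1 pig gave 0 to 3 genes: without lean pig-402, RAPGEF1 (0.0377), GNA12 (0.0376) and SLC12A4 (0.0381) passed, of 147 among all genes. At an unadjusted p, 27 of 111 genes became 46 of 290 with no filter on low values. The share over all 19589 genes of that fit is not given here, so nothing is read from this count. Of 375 single-gene values, 20 changed sign, at 7 genes with changes near 0. With FPKM as deposited, COL4A2 had -0.012 and TBC1D22A -0.023. With the first library of pig-572 only, they had -0.015 and -0.030, and SYCE2 0.016. With both its libraries kept, TBC1D22A had -0.006. Over all alternatives, leaving out each pig in turn included, these genes ranged over 0. COL4A2 ran from -0.105 to 0.170, COL5A3 from -0.076 to 0.224 and BRD3 from -0.018 to 0.044. TCF7L2 ran from -0.003 to 0.338, TBC1D22A from -0.085 to 0.060, SYCE2 from -0.090 to 0.087 and FBXL11 from -0.081 to 0.008. No paired analysis was possible because the groups hold different pigs.

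No error can be put on the RRBS means, and low expression left 205 of the 316 genes untested.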
